A study of Mus musculus with 20 samples.

Results

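The genes described here encode the surface complex through which T lymphocytes recognise antigen, with the kinases, costimulatory and inhibitory receptors and the homing receptor that go with it. They were taken from a list of 10 named genes, namely Cd3d, Cd3e, Cd3g, Cd8a, Cd28, Ctla4, Icos, Cxcr6, Lck and Zap70, and 9 of them were measured among 22180 genes. Lck, the kinase that starts receptor signalling, had no probe set annotated to that gene alone and was not analysed here. Each of the other 9 genes was read by 1 probe set.

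Liver RNA of 20 adult male mice of mixed C57BL/6 x CBA background was measured on whole-transcript Affymetrix arrays, with 1 array per mouse, 10 WT mice and 10 Bnc2 heterozygous mice. The heterozygous mice carried 1 copy of the Ayu21-18 gene trap allele, an insertion in an intron of Bnc2 that is present in every cell and not only in T cells or stellate cells, and WT mice were their littermates. All mice of both groups had received for 7.5 weeks the CDAA-HFSC diet, a choline-deficient, amino acid-defined diet enriched in sucrose, fat and cholesterol that provokes steatohepatitis with fibrosis, and no mice on another diet are part of the comparison. The study asked whether a reduced dose of Bnc2, the gene of a transcription factor with zinc fingers, alters the fibrotic liver.

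A T cell receptor binds a peptide held by a major histocompatibility molecule, but its own chains cannot signal. The invariant CD3 chains carry the signal inward, where LCK phosphorylates them and recruits the kinase ZAP70. A second signal decides the outcome: CD28 and ICOS promote activation, whereas CTLA4 competes with CD28 for the same ligands and restrains it. CD8 marks cytotoxic T cells, and CXCR6 binds CXCL16, which is made by liver sinusoidal cells and macrophages and holds T cells and natural killer (NK) T cells in the organ. In steatohepatitis, T cells that carry CXCR6 are known to accumulate in the liver.

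Cd3g, Cd3e and Cd3d, which encode 3 subunits of 1 complex, lie next to each other on chromosome 9. The sequence before each gene start is shown as a description, and its relation to the array readings was not tested. The windows are the 250 bases before the annotated start in the RefSeq annotation of GRCm38.p6, written 5′ to 3′ on the strand of the gene. Capitals mark a match to 1 of the core motifs searched on both strands, GGAAGT (bound by ETS factors) and AGATAA (bound by GATA factors), with ACTTCC being GGAAGT on the opposite strand. Cd3g (gene identifier 12502, minus strand) has its window at chr9:44980432-44980681, Cd3d (12500, plus strand) at chr9:44981536-44981785 and Cd3e (12501, minus strand) at chr9:45009612-45009861.
Cd3g: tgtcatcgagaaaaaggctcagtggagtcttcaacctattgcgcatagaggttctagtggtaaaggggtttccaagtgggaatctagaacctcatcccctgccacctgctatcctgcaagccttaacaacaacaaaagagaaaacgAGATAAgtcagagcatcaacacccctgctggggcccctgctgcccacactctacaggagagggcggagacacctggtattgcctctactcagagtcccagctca
Cd3d: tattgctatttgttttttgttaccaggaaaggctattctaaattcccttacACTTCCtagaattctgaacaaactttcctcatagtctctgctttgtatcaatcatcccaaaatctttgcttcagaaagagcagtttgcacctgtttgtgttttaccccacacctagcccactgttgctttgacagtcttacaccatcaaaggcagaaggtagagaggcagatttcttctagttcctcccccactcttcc
Cd3e: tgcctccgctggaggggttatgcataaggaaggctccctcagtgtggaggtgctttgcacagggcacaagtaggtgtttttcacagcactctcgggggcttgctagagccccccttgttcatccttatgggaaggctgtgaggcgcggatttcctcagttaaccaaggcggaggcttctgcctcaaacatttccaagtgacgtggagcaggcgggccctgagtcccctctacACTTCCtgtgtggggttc

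Cd3g and Cd3d are transcribed away from each other, with starts 1355 bases apart. The Cd3g window held the GATA core once, 104 to 99 bases before the start, and no ETS core. The Cd3d window held the ETS core 199 to 194 bases before the start and the Cd3e window 18 to 13 bases before it, both on the strand opposite to the gene. No window of the 3 held the RUNX core TGTGGT or the TATA box TATAAA, and no base belonged to more than 1 motif. Such matches are frequent, since 19.7% of 32851 windows of the same length held the ETS core, 9.99% the GATA core, 14.0% the RUNX core and 12.4% the TATA box.

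Detection was judged against olfactory receptor (Olfr) genes. Most of them are hardly expressed in liver and so were taken to give the level of probe sets without a liver transcript. The 1105 Olfr genes had a median level of 4.96 on the log2 scale and a 95th percentile of 6.99. Single Olfr genes lay higher, the highest averaging 11.1. In what follows, the Olfr range means levels up to the 95th percentile. Among all genes 47% averaged above that percentile, and among the 9 genes only Cd3g, Cd3e and Icos did. Levels of different probe sets depend on their sequence, so genes were not ranked against each other and each was placed against this background only.

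Cd3g, a CD3 chain found in both main types of T cell receptor, averaged 8.14, above 98.8% of Olfr genes. It exceeded the Olfr 95th percentile of the same array in 10 of 10 WT mice and 8 of 10 heterozygous mice. Cd3e, whose product pairs with CD3γ and CD3δ, averaged 7.59, above 97.5% of Olfr genes, again in 10 WT and 8 heterozygous mice. Icos, induced on T cells after activation, averaged 7.32, above 96.2% of Olfr genes, and passed the limit in 10 WT and 6 heterozygous mice. These 3 genes were thus above this limit, though not above every Olfr gene, in most mice of both genotypes.

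The other 6 genes gave readings within the Olfr range. Cd8a averaged 6.54, above 91.6% of Olfr genes, and passed the limit of its array in 1 WT mouse. Cxcr6 averaged 6.44, above 90.6%, and passed it in 3 WT mice. Cd28 averaged 6.29 (above 89.1%) and Zap70 6.20 (above 87.6%), and neither passed it in any mouse. Cd3d averaged 5.25 (above 63.8%), and Ctla4 averaged 4.43 (above 27.8%), which is below the Olfr median. For these 6 genes a true transcript level near the limit and a probe set without signal could not be separated, and their differences below carry that limit. The subunits of CD3 therefore read unequally, with Cd3e and Cd3g well above the background and Cd3d inside it on every array.

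**Figure D1:**
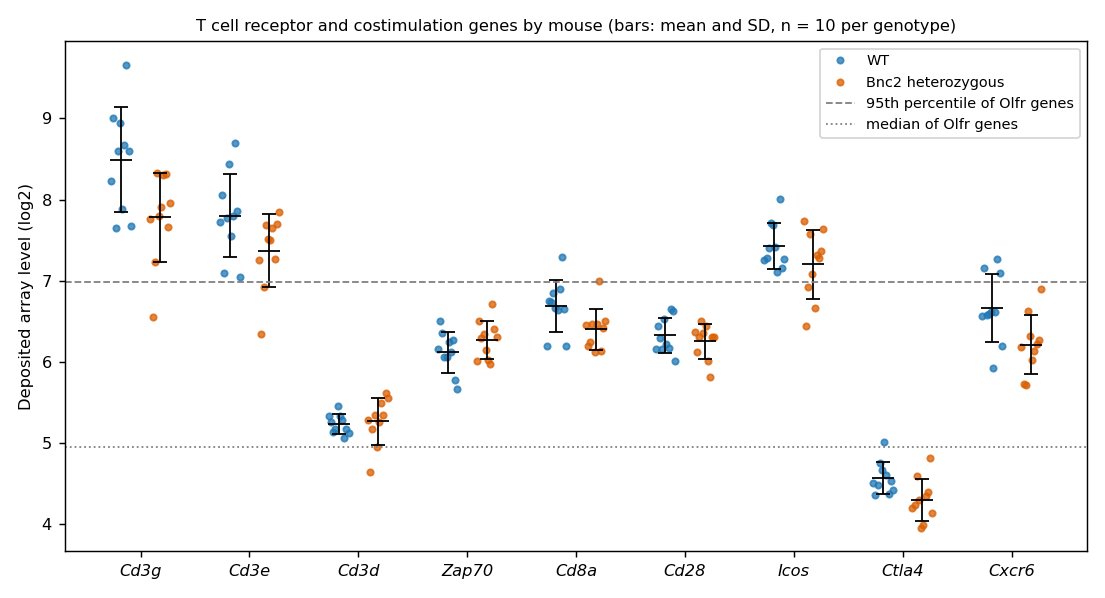
Deposited log2 level (vertical axis) of the 9 measured genes (horizontal axis) in each mouse, with WT mice in blue and Bnc2 heterozygous mice in orange; bars give the mean and SD of 10 mice, and horizontal lines the median (4.96) and the 95th percentile (6.99) of 1105 Olfr genes. Cd3g, Cd3e and Icos average above the upper line, and the genotypes overlap in every gene.

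Genotypes were compared across all genes with limma, as heterozygous minus WT. No gene of 22180 passed an adjusted p of 0.05 (0%, smallest adjusted p 0.446), and neither did any of the 9 genes, whose adjusted p ran from 0.627 to 0.985. At an unadjusted p under 0.05, 5 of the 9 genes were lower in heterozygous livers, against 806 of all genes (3.63%), and none was higher, against 616 (2.78%). Without regard to a test, 7 of 9 genes averaged lower in heterozygous livers, against 49% of all genes. The median difference was -0.28 over the 9 genes and 0.00 over all genes (log2). The list was assembled with earlier results of these data known, so that these counts are a description. In whole liver, fewer T cells and less RNA per T cell cannot be told apart.

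Bnc2 itself averaged 5.37 in WT and 5.41 in heterozygous livers (limma fold 1.03, 95% interval 0.903 to 1.17, p = 0.663), both within the Olfr range. Where this probe set lies relative to the trap was not worked out, so that it gives no check of the genotype labels. The paper genotyped the mice by PCR and reports lower Bnc2 by RT-qPCR in heterozygous than in WT livers on this diet.

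Among the CD3 chains, Cd3g showed the widest gap. In WT mice its level ran from 7.65 to 9.66 with a median of 8.60, and in heterozygous mice from 6.55 to 8.33 with a median of 7.85. All 10 heterozygous mice lay below the WT mean and 6 of 10 WT mice lay above the highest heterozygous mouse, but 4 WT mice stood within the heterozygous range. The means were 8.49 ± 0.64 and 7.78 ± 0.55 (SD, n = 10 each), which differed by -0.71 (SE 0.24). The fold was 0.611 with a 95% interval of 0.431 to 0.868 (limma p = 0.00805, adjusted p = 0.627, two-sided permutation p = 0.0145). Cd3g stayed at an unadjusted limma p under 0.05 when any 1 of the 20 mice was left out.

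Cd3e went the same way with more overlap. WT livers ran from 7.05 to 8.69 with a median of 7.78, and heterozygous livers from 6.35 to 7.84 with a median of 7.51. The WT mean exceeded 9 of the heterozygous mice, and 4 WT mice lay above every heterozygous mouse. Means of 7.80 ± 0.52 and 7.37 ± 0.45 (SD, n = 10 each) gave a difference of -0.43 (SE 0.20) and a fold of 0.740 with a 95% interval of 0.556 to 0.985 (limma p = 0.0398, adjusted p = 0.756, permutation p = 0.0596). The unadjusted p stayed under 0.05 in 12 of the 20 fits with 1 mouse left out and reached 0.0881 without heterozygous mouse 2, the lowest of all mice in both Cd3e and Cd3g.

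Cd3d, the third of these chains, did not follow. WT mice ran from 5.07 to 5.45 (median 5.22) and heterozygous mice from 4.64 to 5.62 (median 5.32), whose range spanned that of the WT mice on both sides. The difference was 0.03 with an SE of 0.10 (fold 1.02, 95% interval 0.888 to 1.18, limma p = 0.741, adjusted p = 0.985). The SD was 0.12 in WT and 0.29 in heterozygous mice. Since the reading lay in the Olfr range, it bounds the probe set and not the transcript.

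The kinase gene Zap70 and the coreceptor chain gene Cd8a lay on opposite sides. Zap70 ran from 5.67 to 6.51 (median 6.14) in WT mice and from 5.98 to 6.71 (median 6.31) in heterozygous mice, with only 3 heterozygous mice below the WT mean. Its difference of 0.15 (SE 0.11, fold 1.11, 95% interval 0.954 to 1.29) did not pass the test (limma p = 0.167, adjusted p = 0.877). Cd8a ran from 6.20 to 7.29 (median 6.70) in WT and from 6.13 to 6.99 (median 6.43) in heterozygous livers, and the WT mean exceeded 9 of 10 heterozygous mice. Here the difference was -0.29 with an SE of 0.12 (fold 0.819, 95% interval 0.686 to 0.978, limma p = 0.0288, adjusted p = 0.713, permutation p = 0.0393). Without WT mouse 8, which had the highest Cd8a, Cd3e and Cd3g of all mice, the unadjusted p was 0.0639 for Cd8a and 0.0874 for Cd3e. The count of genes lower at p under 0.05 was then 3 of 9, against 790 of all genes. Without heterozygous mouse 8 the count was also 3, against 711 of all genes, with p = 0.0537 for Cd8a and 0.0555 for Cd3e.

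The 3 receptors of the CD28 family, which are neighbours on chromosome 1, gave 3 different readings. Ctla4 had 7 heterozygous mice below the WT range and ran from 4.36 to 5.01 (median 4.53) in WT and from 3.96 to 4.82 (median 4.27) in heterozygous mice. The gene sat below the Olfr median in both groups. The difference was -0.28 (SE 0.10, fold 0.826, 95% interval 0.713 to 0.956, limma p = 0.0128, adjusted p = 0.627, permutation p = 0.0166). Icos ran from 7.11 to 8.00 (median 7.34) in WT and from 6.44 to 7.73 (median 7.30) in heterozygous mice, so that the medians nearly coincided and 4 heterozygous mice fell below the WT range. Its difference of -0.22 (SE 0.15, fold 0.856, 95% interval 0.689 to 1.06) did not pass the test (limma p = 0.151, adjusted p = 0.867) and was -0.14 without heterozygous mouse 2 (p = 0.319). Cd28 ran from 6.01 to 6.65 (median 6.26) in WT and from 5.81 to 6.50 (median 6.30) in heterozygous mice. A fold of 0.951 with a 95% interval of 0.828 to 1.09 bounds its difference (limma p = 0.454, adjusted p = 0.950).

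Cxcr6, the homing receptor, ran from 5.93 to 7.27 (median 6.60) in WT livers and from 5.72 to 6.90 (median 6.20) in heterozygous livers. The WT mean exceeded 9 heterozygous mice, and 3 WT mice lay above the highest heterozygous mouse. With means of 6.66 ± 0.42 and 6.21 ± 0.36 (SD, n = 10 each), the difference was -0.45 (SE 0.16, fold 0.732, 95% interval 0.580 to 0.925, limma p = 0.0113, adjusted p = 0.627, permutation p = 0.0214). Like Cd3g and Ctla4, it stayed at an unadjusted p under 0.05 without any 1 of the 20 mice.

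Split by detection, as a description, all 3 genes above the Olfr limit averaged lower in heterozygous livers and 2 of them did so at an unadjusted p under 0.05, against 48.8% and 4.89% (510) of the 10428 genes above that limit. Of the 6 genes within the Olfr range 4 averaged lower, including 3 with an unadjusted p under 0.05, against 49.3% and 2.52% of the 11752 genes in that range. The median level of Olfr genes per array was 4.95 ± 0.079 in WT and 4.96 ± 0.078 in heterozygous mice (SD, n = 10 each), so that the background differed between genotypes by less than the SD between arrays. Across mice, no gene of the 9 correlated with the Olfr median of its array within a genotype after adjustment over 18 tests (smallest adjusted permutation p 0.336). Ctla4 in heterozygous mice had the highest r with it, 0.714 (rho 0.552, adjusted p 0.336 and 0.622). That r was 0.387 without the 2 heterozygous mice whose Olfr level lay farthest from the median of their group.

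**Figure D2:**
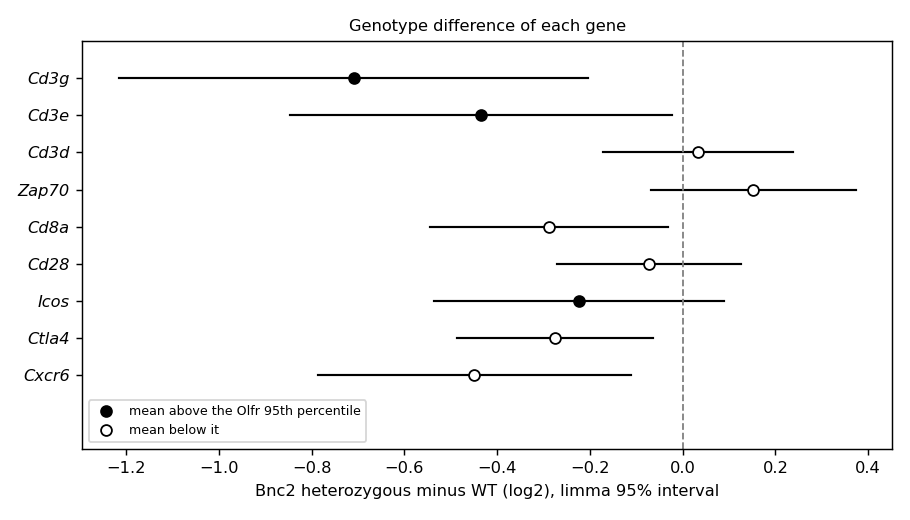
Difference between genotypes (horizontal axis, Bnc2 heterozygous minus WT, log2) for the 9 measured genes (vertical axis); points are limma estimates from 10 mice per genotype and lines their 95% intervals, with filled points for genes averaging above the Olfr 95th percentile. Cd3g (-0.71), Cxcr6 (-0.45), Cd3e (-0.43), Cd8a (-0.29) and Ctla4 (-0.28) have intervals below 0 before adjustment, and no gene passes the adjusted test.

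Other genes of the pathway were read from lists chosen with results of these data in view. Each count below stands against all genes, of which 49% averaged lower and 3.63% were lower and 2.78% higher at an unadjusted p under 0.05. Among the proteins that pass the receptor signal on or limit it, 21 of 24 measured genes averaged lower in heterozygous livers (49% of all genes). At an unadjusted p under 0.05, 6 were lower (3.63% of all genes) and none was higher. The median difference was -0.15. Ptpn22, a phosphatase that dephosphorylates LCK and ZAP70, averaged 9.40 in WT and 8.97 in heterozygous livers (fold 0.742, 95% interval 0.634 to 0.868, limma p = 0.000668, adjusted p = 0.459). The adaptor Lat, a substrate of ZAP70, had a fold of 0.838 (p = 0.0103, adjusted p = 0.627) and the adaptor Skap1 one of 0.829 (p = 0.0147, adjusted p = 0.632). The T cell adaptor Sh2d2a had a fold of 0.861 (p = 0.0224, adjusted p = 0.675). Of these 4 genes, Ptpn22 alone lay above the Olfr 95th percentile, and 12 of the 24 did so in all. Among those 12, Csk and Ptprc were also lower at that level (folds 0.870 and 0.859, limma p = 0.0294 and 0.0402, adjusted p = 0.716 and 0.756). Themis, Prkcq and Cd8b1, also among the 12, had folds of 0.981, 1.01 and 0.978 (p = 0.911, 0.871 and 0.704, adjusted p = 0.997, 0.991 and 0.980).

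Further costimulatory and inhibitory receptors averaged lower in 12 of 14 genes, 3 at an unadjusted p under 0.05 and none higher at that level, with a median difference of -0.11. Cd27, a costimulatory receptor of the TNF receptor family, had a fold of 0.750 (p = 0.00356, adjusted p = 0.519). The inhibitory receptors Btla and Tigit had folds of 0.817 (p = 0.0102, adjusted p = 0.627) and 0.777 (p = 0.0289, adjusted p = 0.713). Tnfrsf9, also known as 4-1BB, had a fold of 0.876 (p = 0.0830, adjusted p = 0.829). Only 2 of these 14 genes averaged above the Olfr 95th percentile.

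Ligands of these receptors, carried largely by antigen-presenting cells, were lower in 8 of 10 genes, 2 at an unadjusted p under 0.05 and none higher at that level (median difference -0.16). Cd274, which encodes the checkpoint ligand PD-L1, averaged 9.76 in WT and 9.14 in heterozygous livers (fold 0.654, p = 0.0219, adjusted p = 0.675). Cd40 had a fold of 0.793 (p = 0.0281, adjusted p = 0.712). Cd86, a ligand of CD28 and CTLA4, had a fold of 0.863 (p = 0.0732, adjusted p = 0.815) and Icosl, the ligand of ICOS, a fold of 0.892 (p = 0.140, adjusted p = 0.859). Ligands of both stimulating and inhibiting receptors were therefore among those that averaged lower.

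All 9 measured chemokines and chemokine receptors of T cells averaged lower in heterozygous livers (49% of all genes), 3 at an unadjusted p under 0.05 (3.63% of all genes), with a median difference of -0.17. Cxcl16, the ligand of CXCR6, averaged 12.8 in WT and 12.4 in heterozygous livers (fold 0.791, 95% interval 0.664 to 0.942, p = 0.0107, adjusted p = 0.627). Ccl5, which attracts effector T cells, averaged 11.9 and 10.9 (fold 0.497, 95% interval 0.279 to 0.888, p = 0.0204, adjusted p = 0.674). The dendritic cell and macrophage chemokine Ccl22 had a fold of 0.655 (p = 0.00266, adjusted p = 0.509), and the interferon-induced Cxcl9 one of 0.543 (p = 0.0705, adjusted p = 0.808). Receptor and ligand of the CXCR6 pair thus averaged lower together, neither past the adjusted threshold.

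Genes of T cell function were less uniform. Of 12 effector genes 9 averaged lower, but only Tnf, which macrophages also make, did so at an unadjusted p under 0.05 (fold 0.607, p = 0.0240, adjusted p = 0.683). Il2 and Il10 had folds of 1.14 each (p = 0.118 and 0.152, adjusted p = 0.843 and 0.868), and Ifng one of 0.879 (p = 0.225, adjusted p = 0.904), all within the Olfr range. Only 4 effector genes averaged above it, Tnf, Nkg7, Prf1 and Gzma. Folds of the last 3 were 0.914, 0.967 and 0.940 (p = 0.352, 0.745 and 0.578, adjusted p = 0.936, 0.986 and 0.966). Of 12 transcription factors and cytokine receptors 9 averaged lower, including 3 with an unadjusted p under 0.05. These were Ikzf3, a lymphocyte zinc finger factor (fold 0.814, p = 0.0106, adjusted p = 0.627), Il2rb, which binds interleukins 2 and 15 (fold 0.735, p = 0.0155, adjusted p = 0.636), and Il18r1 (fold 0.822, p = 0.0298, adjusted p = 0.716). Of these 3 genes Il2rb alone averaged above the Olfr 95th percentile. Il2ra had a fold of 0.861 (p = 0.0571, adjusted p = 0.788).

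Some markers of other cells averaged lower too. Of 9 NK cell markers 7 averaged lower and 2 did so at an unadjusted p under 0.05, Klrd1 (fold 0.749, p = 0.0103, adjusted p = 0.627) and Klrc1 (fold 0.774, p = 0.0187, adjusted p = 0.664). Klrk1 had a fold of 0.733 (p = 0.0620, adjusted p = 0.798) and Ncr1, which defines NK cells best among them, 0.903 (p = 0.249, adjusted p = 0.909). Klrc1 averaged 6.08, within the Olfr range. The mean NK list level ran from 7.66 to 8.35 in WT and from 7.68 to 8.18 in heterozygous mice. Of 11 macrophage markers, all above the Olfr limit, 10 averaged lower and 2 did so at an unadjusted p under 0.05, Marco (fold 0.489, p = 0.0352, adjusted p = 0.741) and Timd4 (fold 0.509, p = 0.0420, adjusted p = 0.762). The mean level of that list ran from 12.8 to 13.5 in WT and from 12.3 to 13.5 in heterozygous mice. The part of NK cells and macrophages in the readings of the T cell genes was not tested.

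B cell markers stood within the Olfr range in all 7 measured genes, with a mean list level of 5.75 to 6.35 in WT and 5.67 to 6.44 in heterozygous mice. Of these genes 5 averaged lower, none at an unadjusted p under 0.05, and Cr2 was higher (fold 1.53, p = 0.0131, adjusted p = 0.627). Fcer2a had a fold of 0.868 (p = 0.0747, adjusted p = 0.816), Ms4a1, the gene of CD20, 0.906 (p = 0.223, adjusted p = 0.904) and Pax5 0.948 (p = 0.477, adjusted p = 0.954). Hepatocyte markers split evenly, with 5 of 10 lower, none at an unadjusted p under 0.05, and a median difference of 0.00. Their mean level was 17.6 to 17.9 in both genotypes. For Alb the median equalled the highest reading, 19.93, in both genotypes, and Ass1 averaged 7.41, close to the Olfr 95th percentile of 6.99. Whether probe sets at the top of the scale could show a difference was not tested, so the even split carries that limit.

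Covariation across mice was examined within each genotype, so that the genotype difference could not create it, with permutation p adjusted over all 72 pairs of both genotypes. In WT mice 26 of 36 pairs of the 9 genes correlated positively, with a median r of 0.258 and a range from -0.66 to 0.953. That median depended on single mice, being 0.0967 without WT mouse 10 and 0.435 without WT mouse 9. In heterozygous mice 25 of 36 pairs were positive, with a median r of 0.232 and a range from -0.599 to 0.824, the median being 0.354 without heterozygous mouse 7 and 0.170 without mouse 4. Whether the genotypes differed in these correlations was not tested. The share of positive pairs and the median r over all genes of these arrays were not worked out, so these counts are a description only.

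Cd3e and Cd3g covaried from mouse to mouse. In WT livers the pair had r = 0.953 (permutation p = 2e-05, adjusted p = 0.00144) and rho = 0.964 (adjusted p = 0.00576). Without WT mice 8 and 10, the farthest from the median in Cd3e, r was 0.90 in the other 8 mice (exact permutation p = 0.000471). It was the only pair called by both measures. In heterozygous livers r was 0.824 (permutation p = 0.00787, adjusted p = 0.113) and rho 0.527 (adjusted p = 0.474), and without heterozygous mice 2 and 3, which had the lowest levels of both genes, r was 0.017 (exact permutation p = 0.967), so the relation there rested on those 2 mice.

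Cd3d, within the Olfr range, had r = 0.21 with Cd3e and 0.00 with Cd3g in WT mice. In heterozygous mice the values were 0.82 with Cd3e (rho 0.818, adjusted p = 0.113 and 0.102) and 0.71 with Cd3g (rho 0.479, adjusted p = 0.162 and 0.549). Without the 2 mice farthest from the median of Cd3d, r in heterozygous mice was 0.812 with Cd3e and 0.302 with Cd3g, and in WT mice 0.519 and 0.275.

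Cxcr6 followed the CD3 chains by rank in WT mice, with rho = 0.903 against Cd3e (adjusted p = 0.0335) and 0.879 against Cd3g (adjusted p = 0.0398). The Pearson values were 0.646 (adjusted p = 0.189) and 0.781 (adjusted p = 0.113), and without the 2 mice farthest from the median of the CD3 gene they were 0.36 and 0.794. In heterozygous mice r was 0.797 against Cd3e (rho 0.806, adjusted p = 0.113 and 0.108) and 0.646 against Cd3g (rho 0.564, adjusted p = 0.198 and 0.413), and without the 2 extreme mice 0.637 and 0.126. Ctla4 and Cxcr6, both within the Olfr range, had r = -0.66 in WT mice (rho -0.43, adjusted p = 0.178 and 0.650), which was -0.35 without 2 mice, and r = -0.20 in heterozygous mice. With the Olfr median of the array, Ctla4 had r = 0.562 (rho 0.103) and Cxcr6 -0.617 (rho -0.406) in WT mice, each with an adjusted permutation p of 0.433 for r. Without the 2 WT mice farthest from the median of that Olfr level, r was -0.042 for Ctla4 and 0.001 for Cxcr6. The part of the array background in the pair of Ctla4 and Cxcr6 was not tested. The 3 neighbours on chromosome 1 showed little relation: Cd28 and Ctla4 had r = -0.25 and -0.24, Cd28 and Icos 0.39 and 0.12, and Ctla4 and Icos 0.05 and 0.14 in WT and heterozygous mice.

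Single mice stood out across several genes. WT mouse 8 had the highest Cd3g (9.66), Cd3e (8.69), Icos (8.00), Cd8a (7.29) and Cxcr6 (7.27) of all 20 mice. Heterozygous mouse 2 had the lowest Cd3g (6.55), Cd3e (6.35), Icos (6.44) and Cd3d (4.64). Ctla4 did not share this order, its highest mice being WT mouse 6 at 5.01 and heterozygous mouse 9 at 4.82.

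**Figure D3:**
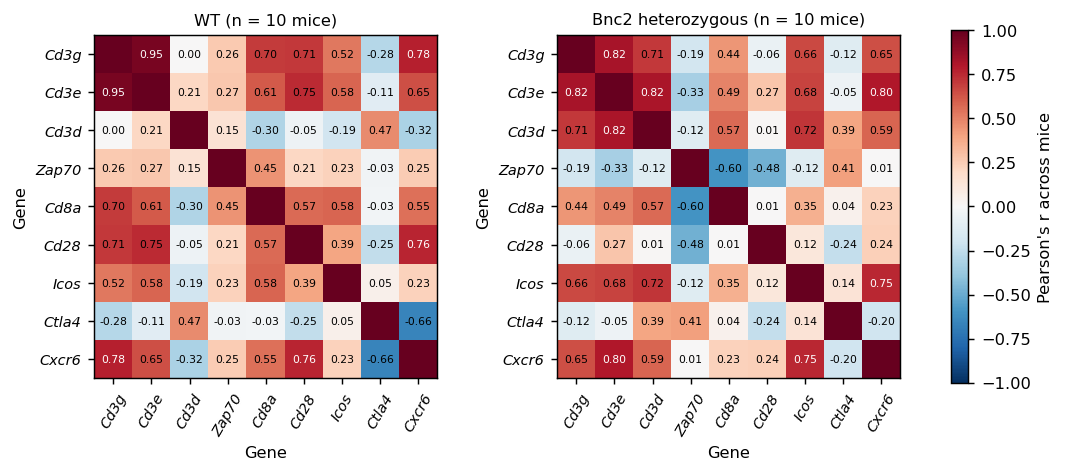
Pearson's r (colour and printed value) between the levels of each pair of the 9 measured genes across mice, in 10 WT mice (left) and 10 Bnc2 heterozygous mice (right), with genes on both axes. The pair of Cd3e and Cd3g is strongly positive in WT mice (0.95), and Ctla4 with Cxcr6 is the most negative pair there (-0.66).

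The 3 genes above the Olfr limit were then set against 18 genes of ligands, antigen presentation, matrix and other cell types, again within each genotype and adjusted over 108 tests. The median r was 0.534 (-0.654 to 0.873) in WT mice and 0.253 (-0.392 to 0.817) in heterozygous mice, again without a median over all genes beside it. By Pearson's r 6 relations were called in WT mice and none in heterozygous mice. None was called by Spearman's rho (smallest adjusted p 0.116). All 6 called by Pearson's r had an adjusted permutation p of 0.0497. Cd3e correlated with the chemokines Cxcl9 (r = 0.873, rho = 0.673), Ccl5 (r = 0.842, rho = 0.818) and Cxcl10 (r = 0.830, rho = 0.830). Cd3g correlated with Ccl5 (r = 0.837, rho = 0.830) and Cxcl10 (r = 0.827, rho = 0.745), and Icos with the peptide transporter gene Tap1 (r = 0.825, rho = 0.830).

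These relations leaned on the extreme mice. Without the 2 WT mice farthest from the median of the T cell gene, r was 0.739 for Cd3e with Cxcl9 (exact permutation p = 0.0406), 0.680 with Ccl5 (exact p = 0.0552) and 0.563 with Cxcl10 (exact p = 0.157). For Cd3g it was 0.707 with Ccl5 (exact permutation p = 0.0532) and 0.643 with Cxcl10 (exact p = 0.0770), and for Icos with Tap1 it was 0.679 (exact p = 0.0582). In heterozygous mice Cd3e had r = 0.238 with Cxcl9, 0.612 with Ccl5 and 0.163 with Cxcl10 (adjusted p = 0.692, 0.198 and 0.784). Cd3g had r = 0.626 with Ccl5 and 0.439 with Cxcl10 (adjusted p = 0.189 and 0.420), and Icos had r = 0.447 with Tap1 (adjusted p = 0.402). Without the 2 extreme heterozygous mice, r with Ccl5 was -0.01 for Cd3e and 0.058 for Cd3g.

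No relation to the matrix gene Col1a1 or to Bnc2 passed the threshold. Col1a1, a fibrillar collagen gene of scar, had r = -0.02 with Cd3e and -0.04 with Cd3g in WT mice (adjusted p = 0.984 and 0.965) and -0.39 with each in heterozygous mice (adjusted p = 0.490 and 0.494). Bnc2 had r = -0.33 with Cd3e and -0.54 with Cd3g in WT mice (adjusted p = 0.579 and 0.267) and -0.19 and -0.22 in heterozygous mice (adjusted p = 0.721 and 0.692). By Spearman's rho the adjusted p of these relations was 0.365 or more, and 10 mice a genotype limit what could be detected.

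**Figure D4:**
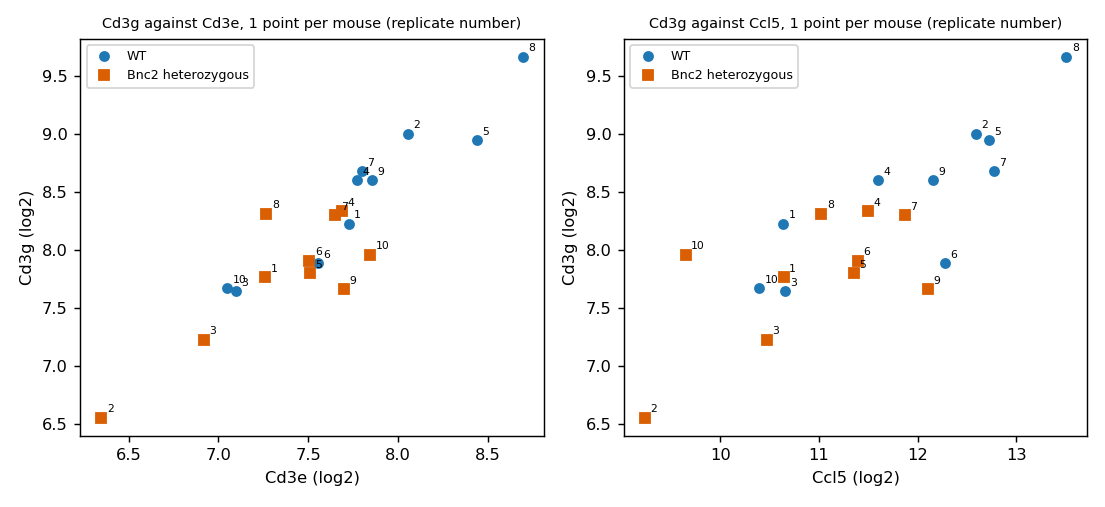
Level of Cd3g (vertical axis, log2) against Cd3e (left) and Ccl5 (right, horizontal axes, log2), 1 point per mouse with its replicate number, WT mice as blue circles and Bnc2 heterozygous mice as orange squares. In WT mice the points of Cd3g and Cd3e rise together up to mouse 8 (8.69, 9.66). In heterozygous mice the relation rests on mice 2 (6.35, 6.55) and 3, without which r is 0.017.

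Genes whose pattern was most like that of these 3 genes were ranked among 22171 genes by Pearson's r to their mean across the 20 mice, after the genotype means were taken out. The highest were Nkg7, a granule gene of cytotoxic cells (r = 0.845, 0.817 in WT and 0.887 in heterozygous mice), and Parp11 (r = 0.831, 0.927 and 0.723). Then came Il2rb (0.791), the lipid phosphatase gene Inpp4b (0.784), Ikzf3 (0.780), the interferon-inducible GTPase gene Gbp4 (0.774), Gm4759 (0.760), the T and NK cell receptor gene Cd96 (0.757), Calhm6 (0.746) and Batf2 (0.746). All 10 averaged lower in heterozygous livers, against 49% of all genes. The differences ran from -0.13 for Nkg7 (limma p = 0.352) to -0.61 for Gm4759 (p = 0.0109), with Cd96 at -0.44 (p = 0.00535) and Parp11 at -0.31 (p = 0.0137). None passed the adjusted threshold. Ikzf3 (6.03), Cd96 (6.05), Batf2 (6.20) and Calhm6 (6.70) averaged within the Olfr range. Nkg7 thus had the pattern most like the mean of Cd3g, Cd3e and Icos across mice with the smallest difference between genotypes of the 10.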

How the data were processed

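Each liver was hybridised to 1 MoGene-2_0-st array. Following the study's methods, the authors summarised probe sets with Affymetrix Power Tools (GC correction, intensity scaling and RMA at core gene level) and deposited log2 values. The step ran within the GIANT tool suite. The version of Affymetrix Power Tools and the genome build and annotation release of the mouse values are not given in the sources used here, and scanner files were not analysed here.

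Of 41345 probe sets, 23521 were annotated to 1 gene and were averaged per symbol, giving 22180 genes. Probe sets of several genes (1820) or no gene name (16004) were left out. Of the annotated probe sets 23328 matched the GRCm38.p6 gene table, which changed no symbol. Array medians ran from 6.62 to 6.71 and pairwise array correlations from 0.987 to 0.994. The number of arrays limits precision. The limma p-values set a difference against the variation between these mice, moderated across genes, and permutation p-values set a result against shuffled mice.

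Genotypes were compared with limma 3.58.1 (lmFit, eBayes, R 4.3.3) without covariate and with Benjamini-Hochberg adjustment over all genes (threshold 0.05). Permutation tests were two-sided with 100000 resamples, or exact where 8 mice were left (Python 3.11.15, scipy 1.17.1). Intervals cover 95%. The scripts were tested on simulated data. The labels name no batch.

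The members and all lists were chosen with earlier results of these data known. Named genes were all members, Bnc2, up to 4 genes of smallest unadjusted p per list, the partner genes set against the members (their range and those called), and the 10 genes most like the mean of the members above the Olfr 95th percentile. Some further list genes were named to show the spread of their list. Alternatives were quantile normalization, centring, a filter on dim genes, the brightest probe set, other variance priors, array weights, a replicate block, a covariate and leaving out each array.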

Additional observations from a re-analysis of the deposited data

Results flagged for a closer look

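One reading stood apart from its group. Cd8a in heterozygous mouse 7 was 6.99, and its gap to the nearest heterozygous mouse was 0.560 of the range of the group, which is above the limit for 10 samples. It was the 1 case among the 18 groups tested (9 genes in 2 genotypes), and chance alone flags about 1 in 20 groups. Leaving out heterozygous mouse 7 kept 5 of the 9 genes lower at an unadjusted p under 0.05, against 773 of all genes.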

How the results depend on the processing

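Depth in an array is signal over background, and 6 of the 9 genes lay within the Olfr range, which limits what their differences can show. The number of genes past the adjusted threshold was 0 and became 1 when the first component of the residual variation was added as a covariate, and that gene was no member. With only genes at or above the median level, 11090 genes were tested, 3 of them members. All 3 members averaged lower and 2 did so at an unadjusted p under 0.05, against 546 of the 11090 genes. At that level 363 of the 11090 genes were higher, against 616 of 22180 without the filter. Leaving out 1 mouse at a time gave 0 genes past the adjusted threshold. In these fits 3 to 5 members were lower at an unadjusted p under 0.05, against 690 to 930 of all genes. The member count was 3 without WT mouse 8 or heterozygous mouse 8. The difference of Cd3d turned to -0.0059 without heterozygous mouse 9 (range -0.0059 to 0.1025). It turned to -0.0426 without the 4 arrays of smallest spread (WT mice 4 and 6, heterozygous mice 9 and 10), a setting chosen after seeing the data. Under that setting 4 members were lower at an unadjusted p under 0.05, against 762 of all genes. Arrays centred on the median of the named genes, also chosen after seeing the data, gave 627 genes lower and 836 higher at an unadjusted p under 0.05 against 806 and 616, with 5 members lower as before. The adjusted p over all alternatives ran from 0.428 to 0.863 for Cd3g, 0.377 to 0.863 for Ctla4, 0.386 to 0.863 for Cxcr6, 0.525 to 0.897 for Cd8a and 0.586 to 0.932 for Cd3e.

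Replicate numbers are shared by the genotypes but are not stated to pair mice. The correlation of same-numbered mice ran from -0.172 to 0.166, with 4 of 10 pairs above 0.1, and 2 of 10 WT mice correlated best with their own number. The replicate block kept 5 members lower at an unadjusted p under 0.05 and 0 genes past the adjusted threshold, with 833 genes lower and 619 higher at an unadjusted p under 0.05.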

Other observations

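The windows before the starts of the other members were searched for the same motifs. Of the 10 named genes 8 had an entry, and Cd28 and Icos had none. Cxcr6 held the RUNX core once, 10 to 5 bases before its start. Lck held the ETS core in both of its annotated start windows and the RUNX core in 1, and 1 of 3 windows of Zap70 held both motifs. The windows of Cd8a and Ctla4 held none of the 4 motifs.

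Dendritic cell markers averaged lower in 4 of 6 measured genes, none at an unadjusted p under 0.05. Flt3, the receptor that supports dendritic cell development, had a fold of 0.889 (limma p = 0.0688, adjusted p = 0.806) and Siglech, a marker of plasmacytoid cells, one of 0.886 (p = 0.102, adjusted p = 0.829). Xcr1 had a fold of 0.960 (p = 0.583, adjusted p = 0.967). Flt3 and Xcr1 lay within the Olfr range. Cd209a and Zbtb46 averaged higher, with folds of 1.05 (p = 0.442, adjusted p = 0.948) and 1.02 (p = 0.665, adjusted p = 0.977). Of 4 genes known from developing T cells in the thymus, Cd1d1, which presents lipids to NK T cells and is also found on liver cells, was lower at an unadjusted p under 0.05 (fold 0.772, p = 0.0320, adjusted p = 0.727) and Ptcra was higher (fold 1.16, p = 0.0394, adjusted p = 0.756). Ptcra, Rag2 and Dntt lay within the Olfr range. Rag2 and Dntt, which act in receptor gene assembly, had folds of 1.02 and 0.973 (p = 0.825 and 0.593, adjusted p = 0.990 and 0.967).

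The macrophage marker Timd4 was among the genes set against Icos and Cd3g. In WT mice Icos had r = 0.647 with it (rho 0.855, adjusted p = 0.186 and 0.116) and Cd3g r = 0.018 (adjusted p = 0.984). In heterozygous mice Cd3g had r = 0.794 with Timd4 (rho 0.624, adjusted p = 0.0747 and 0.295), which was 0.491 without the 2 mice farthest from the median of Cd3g. None of these passed the adjusted threshold, and the difference between genotypes was not tested.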
